A study of Mus musculus with 12 samples.

Results

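The comparison described here set mice labelled Smad3-/- against wild type mice, both on a high fat diet, which the labels' protocols give as 55% fat. It used 4 of the 12 arrays of the series, those titled KO_HFD (a and b) and WT_HFD (a and b), chosen by their titles. Each array measured total RNA of 1 sample. The KO_HFD mice were Smad3-/-, of strains mixed from C57BL/6 and NIH Black Swiss, and the WT_HFD mice were wild type C57BL/6, so genotype and strain background cannot be told apart. Set beside it below are the same genotypes on a regular diet (KO_RD and WT_RD) and a separate experiment on diet induced obese mice of the strain labelled C57J/B6. Those mice received an antibody against TGF-beta (ATGF, clone 1D11) or control IgG (clone 13C4) through the peritoneum, in 3 injections a week over 8 weeks. Each of these groups has 2 arrays as well. Nothing in the labels ties a and b to separate mice, and the p-values below cover only the spread between such arrays, which may be technical. A tissue is not given either. Adipoq, the gene of adiponectin and a defining marker of fat cells, had 13.92 and 13.92 in KO_HFD and 13.73 and 13.78 in WT_HFD on the log2 scale of the deposited values, where the medians of these arrays lay between 6.33 and 6.37.

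Smad3 is a transcription factor that carries signals of TGF-beta and activin receptors into the nucleus. White fat stores triglyceride and secretes leptin. Brown and beige fat cells burn fuel for heat through the uncoupling protein Ucp1 and hold many mitochondria. Skeletal muscle is also rich in mitochondria and shares part of its oxidative gene set with brown fat, but it also builds sarcomeres from fast and slow isoforms of myosin, troponin and their partners. In fat of obese animals, macrophages take up lipid and switch on lysosomal genes.

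For each of 18194 genes, 1 probe set was used, the brightest over all arrays among those naming only that gene. The KO_HFD arrays correlated at r = 0.994 over genes and the WT_HFD arrays at 0.993, against 0.975 to 0.977 between the groups. The SD of the differences between arrays was 0.182 and 0.206 log2 within the groups, against 0.366 to 0.378 between them. The difference between the 3' and 5' probe sets of Gapdh, which grows as RNA degrades, was 0.39 and 0.37 on the KO_HFD arrays, against 0.36 and 0.50 on the WT_HFD arrays, and that of actin was 0.90 and 0.99, against 0.99 and 0.96. None of 5 measured sex-linked genes passed the threshold given below, and with dim genes left out 2 of them remained. Kdm5d, at 0.46, passed in some other settings, such as quantile normalization applied again and only the 8 diet and genotype arrays. Without KO_HFD replicate b its difference was 0.69. The targeted gene does not check the labels. The brightest Smad3 probe set had 9.14 and 9.03 in KO_HFD, against 8.88 and 8.95 in WT_HFD, a difference of 0.17 ± 0.11 (SE, limma adjusted p = 0.409). Its 2 dimmer probe sets had 5.88 and 6.05 against 5.98 and 6.00, and 5.43 and 5.11 against 5.54 and 5.11. Their place relative to the disrupted sequence is not known from the labels or the annotation used here.

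A difference was called when its adjusted p in limma, over all 18194 genes, was under 0.05. Of these genes 1963 were called (10.8%), of which 863 were higher in the knockout (4.74% of the genes tested) and 1100 lower (6.05%). The values of the arrays did not overlap between groups for any called gene, but with 2 arrays a side this held for 8740 genes in all (48.0%), called or not. The median difference over all genes was -0.01. A minimum of 1.5-fold left 432 higher and 463 lower genes. For called genes named by the rule given under processing, each log2 difference KO_HFD minus WT_HFD has an SE between 0.10 and 0.24. Their limma adjusted p is at most 0.0475, with 2 arrays a side. Other called genes named below passed the same threshold of 0.05.

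The highest differences belonged to the contractile apparatus of fast muscle fibres. Tnnc2, the calcium-binding troponin of fast fibres, had 11.96 and 12.12 in KO_HFD, against 5.35 and 5.60 in WT_HFD. Myh4, the myosin heavy chain of the fastest fibres, had 9.92 and 10.10, against 3.64 and 3.67. Both were far apart between the groups and close within them, with log2 differences of 6.57 ± 0.12 and 6.36 ± 0.14, or 94.8-fold and 81.9-fold. Tnnt3 and Tnni2, the other subunits of the fast troponin complex, rose by 6.12 and 5.64. Ckm, the muscle creatine kinase that regenerates ATP, had 11.90 and 11.99 in KO_HFD, against 6.55 and 6.09 in WT_HFD. Ucp1 had 11.67 and 11.86, against 6.37 and 6.33. The remaining genes among the 10 highest were Atp2a1, the calcium pump of fast fibres, at 5.15, Myl2 and Myh7, a light and a heavy chain of slow fibre myosin, at 5.11 and 4.79, and Fabp3, a fatty acid carrier of muscle and brown fat, at 4.79. Atp2a1 was the least even of them, with 11.16 and 11.18 in KO_HFD, against 6.53 and 5.52 in WT_HFD. In bulk samples such as these, more cells of a type and more RNA per cell cannot be told apart, nor can fewer cells and less RNA.

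At the other end stood genes of the male reproductive tract, of fat cells and of macrophages. Spint4, a protease inhibitor gene, had 6.08 and 6.21 in KO_HFD, against 9.72 and 10.03 in WT_HFD. Lcn5, a lipocalin secreted by the epididymis, had 5.21 and 5.55, against 8.93 and 9.27. Mest, an imprinted gene that marks fat cell enlargement, had 8.24 and 8.32, against 10.94 and 10.95. These 3 genes were clearly separated, with log2 differences of -3.73 ± 0.14, -3.72 ± 0.14 and -2.67 ± 0.10. Prm1 and Prm2, the protamines that pack sperm DNA, were at -2.52 and -1.86, and Tnp2, a transition protein that precedes them, at -2.20. Lep, which encodes leptin, had 9.30 and 9.30 in KO_HFD, against 11.53 and 11.74 in WT_HFD. Lgals3, the galectin of activated macrophages, had 8.98 and 9.19, against 11.08 and 11.51. Tuba1a, an alpha tubulin, and Epp13, an epididymal protein gene, were at -1.93 and -1.86.

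**Figure D1:**
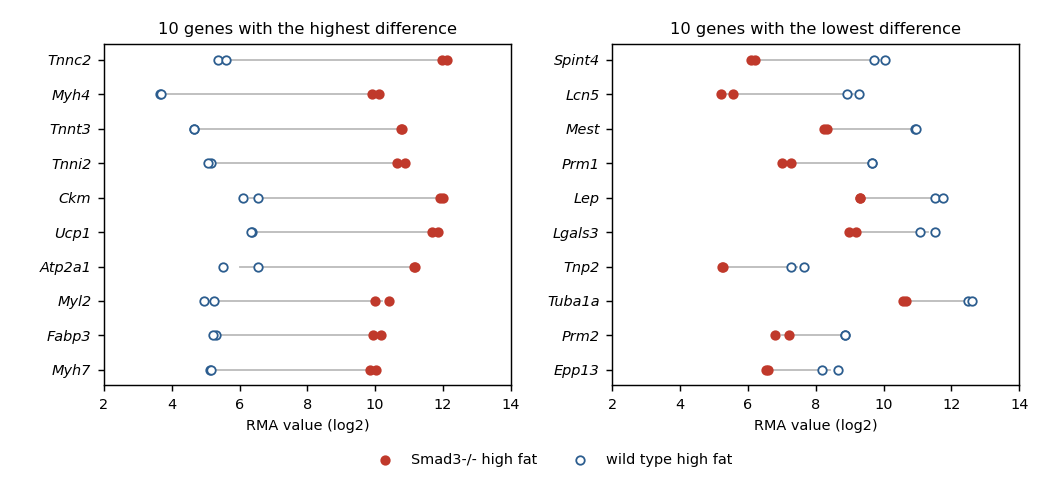
Log2 RMA value (horizontal axis) of the called genes at both ends of the ranking, 10 on each side, 1 per row, with predicted genes passed over. Filled points are the 2 KO_HFD arrays, open points the 2 WT_HFD arrays, and lines join the group means. Genes were shown only if their groups did not overlap. Arrays of a group lie close together except Atp2a1 in wild type, at 6.53 and 5.52.

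The promoters of 3 of these genes are shown because muscle and brown fat genes lead the comparison and the motifs bound by their regulators can be read in them. Each line holds 250 bases before and 50 after the gene start, from RefSeq in build GRCm38.p6, and capitals mark matches on either strand to TATAAA (the TATA box), CAGCTG (an E box of myogenic factors) or a MEF2 site in the muscle genes, and to TATAAA or AGGTCA (read by nuclear receptors such as the PPARs) in Ucp1.
Myh4, chr11:67237562-67237861, + strand: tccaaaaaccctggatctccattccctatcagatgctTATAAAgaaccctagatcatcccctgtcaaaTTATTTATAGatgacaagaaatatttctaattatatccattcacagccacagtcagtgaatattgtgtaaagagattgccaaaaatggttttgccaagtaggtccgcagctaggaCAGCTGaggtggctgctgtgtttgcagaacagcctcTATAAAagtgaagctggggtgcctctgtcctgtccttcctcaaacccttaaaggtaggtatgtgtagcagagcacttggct
Ckm, chr7:19410844-19411143, + strand: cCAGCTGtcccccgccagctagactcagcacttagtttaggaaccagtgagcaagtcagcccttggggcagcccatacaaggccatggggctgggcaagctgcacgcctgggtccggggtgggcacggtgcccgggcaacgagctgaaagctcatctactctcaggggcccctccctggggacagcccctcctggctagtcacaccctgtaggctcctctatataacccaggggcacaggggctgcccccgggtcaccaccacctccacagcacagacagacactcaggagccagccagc
Ucp1, chr8:83290098-83290397, + strand: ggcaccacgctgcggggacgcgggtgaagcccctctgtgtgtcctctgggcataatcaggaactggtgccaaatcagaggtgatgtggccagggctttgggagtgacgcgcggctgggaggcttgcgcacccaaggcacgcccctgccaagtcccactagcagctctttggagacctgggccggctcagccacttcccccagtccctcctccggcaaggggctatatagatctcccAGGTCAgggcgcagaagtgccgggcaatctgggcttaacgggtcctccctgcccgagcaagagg
In Myh4 there were 3 matches to TATAAA, 1 to CAGCTG and 1 MEF2 site, which overlaps a TATAAA on the other strand. Ckm had 1 CAGCTG, Ucp1 had 1 AGGTCA, and the Tnnc2 promoter had 0 matches to the muscle motifs. Of all 32851 promoters in the table, 13.6% held TATAAA, 16.3% CAGCTG, 16.3% AGGTCA and 3.2% a MEF2 site. Among the 7 promoters matched to the fast fibre list, 4 held TATAAA, 3 CAGCTG, 0 AGGTCA and 2 a MEF2 site. Among the 18 promoters of slow fibre genes, 3 held TATAAA (16.7%), 7 CAGCTG, 3 AGGTCA and 1 a MEF2 site. Structural genes common to striated fibres had 21 promoters. Of these, 3 held TATAAA (14.3%), 11 CAGCTG, 4 AGGTCA and 3 a MEF2 site. The 18 promoters of 13 brown fat genes that muscle uses little held 8 with AGGTCA and 5 with TATAAA. These letters are a description of the windows and do not show that a factor binds there.

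Sarcomere genes rose across fibre types. In the fast fibre list 12 of 13 measured genes were higher and 0 lower, with a median difference of 4.13 against -0.01 over all genes. The mean log2 level of the list was 9.36 and 9.47 on the KO_HFD arrays, against 5.63 and 5.70 on the WT_HFD arrays. Myh1 and Myh2, the remaining adult fast myosins, had 9.12 and 9.18 against 4.96 and 4.68, and 8.74 and 8.99 against 5.71 and 5.64. Mylpf, a fast regulatory light chain, rose by 4.40 and Actn3, the alpha actinin of the fast Z disc, by 4.13. Myoz3, a calcineurin-binding Z disc protein gene, did not pass, at 0.00.

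Slow fibre genes moved with them, 11 of 13 higher and 1 lower at a median of 1.92. Tnnt1, the slow troponin T, had 9.49 and 9.75 in KO_HFD, against 5.65 and 5.97 in WT_HFD, and Mybpc1, slow myosin-binding protein C, had 8.88 and 9.01, against 5.45 and 5.59. Tnnc1 and Tnni1, the calcium-binding and inhibitory troponins of slow fibres, rose by 2.93 and 2.44. The gene called lower was Tpm3, slow tropomyosin, at -0.92 by its brightest probe set. Another 2 of its probe sets were called higher, by 2.97 and 2.83, so its direction is uncertain.

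Structural genes common to all striated fibres were higher in 21 of 23 with 0 lower (median 2.02). Tcap, which caps titin at the Z disc, had 11.46 and 11.64 in KO_HFD, against 7.34 and 7.46 in WT_HFD. Ttn itself had 10.48 and 10.80, against 6.45 and 6.55, and Mb, the oxygen store myoglobin, 10.64 and 10.90, against 6.60 and 6.73. Acta1, skeletal actin, was bright on every array, with 12.93 and 12.99, against 9.05 and 9.19. As for every called gene, the groups of these 4 genes did not overlap.

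Beyond the sarcomere, genes that release and recapture calcium were higher in 11 of 19 and lower in 1 (median 0.94). The lower gene was Asph, at -0.90 by its brightest probe set, and another of its probe sets was called higher, by 0.51. With probe sets averaged, 0 genes of the list were lower. Ryr1, the calcium release channel, had 8.58 and 8.68 in KO_HFD, against 5.95 and 5.70 in WT_HFD. Pvalb, a calcium buffer of fast fibres, had 10.59 and 10.81, against 7.31 and 6.26, so the groups were apart although wild type arrays differed by about 1 unit. Casq1, the fast isoform of calsequestrin, rose by 0.96, while Atp2a2, the slow and cardiac calcium pump, did not pass at -0.06. Energy supply genes of muscle were higher in 15 of 20 with 0 lower (median 0.93). Eno3, the muscle enolase, rose by 3.22, Ckmt2, mitochondrial creatine kinase, by 2.66, and Pygm, which breaks down muscle glycogen, by 2.05.

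Genes that form or innervate muscle differed less. Of 16 myogenic regulators 2 were higher and 0 lower, a share near the 10.8% called over all genes. Myf6, a factor of mature fibres, had 6.83 and 7.05 in KO_HFD, against 5.64 and 5.99 in WT_HFD. Mef2c, a partner of the myogenic factors, rose by 0.59, a call that ended without KO_HFD replicate b (0.41, limma adjusted p = 0.119). Myod1, which starts the programme, had 7.76 and 7.49 against 7.41 and 7.33, a difference of 0.26 that did not pass, and Myog, which drives fusion, was at 0.41. None of 14 neuromuscular and excitable membrane genes was called (median 0.04), with Chrna1, a subunit of the acetylcholine receptor, at 0.19. None of 11 heart-restricted genes was called either (median 0.01). With dim genes left out, 8 of the 16 myogenic, 4 of the 14 neuromuscular and 2 of the 11 heart-restricted genes remained. Most of the last 2 lists were thus dim, where differences may be compressed. Myh6, the atrial and adult rodent ventricular myosin, had 4.41 and 4.52 in KO_HFD, against 4.22 and 4.36 in WT_HFD, below the array medians. Ubiquitin ligases and related genes of muscle turnover were higher in 5 of 15 and lower in 1, led by Trim63, which marks sarcomere proteins for degradation, at 2.09.

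**Figure D2:**
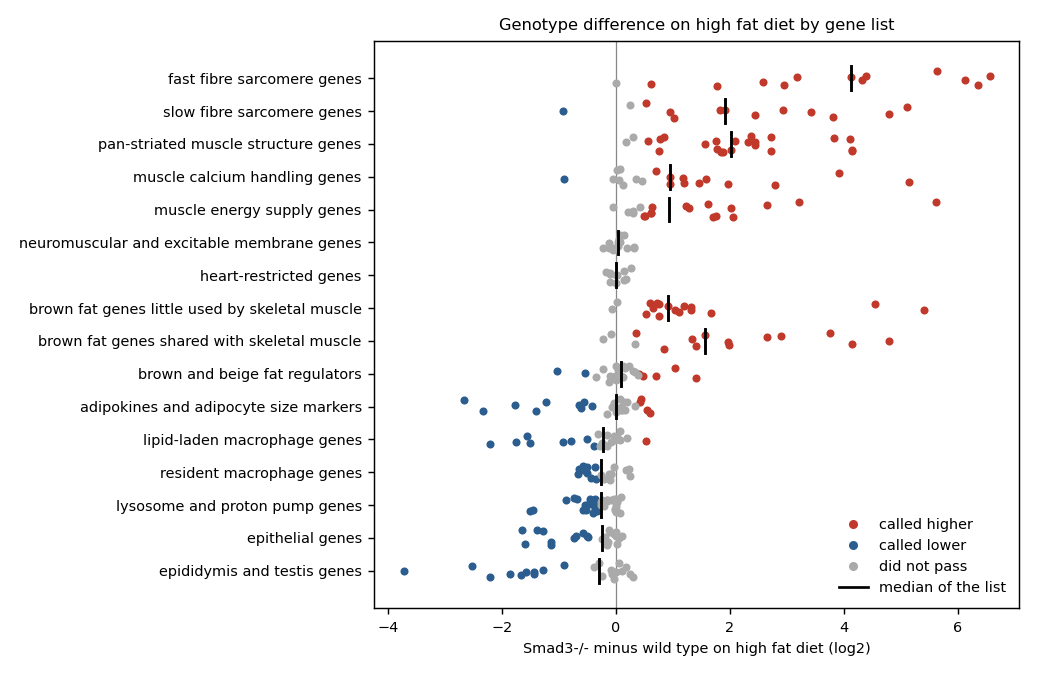
Log2 difference, KO_HFD minus WT_HFD (horizontal axis), of each measured gene of 16 lists. Each point is a gene, coloured by its call, and black bars are list medians. Sarcomere lists reach past 6, the neuromuscular and heart-restricted lists hold only genes that did not pass, and the macrophage, lysosome, epithelial and epididymis lists extend to the left.

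Brown fat genes that skeletal muscle uses little were higher in 15 of 17 with 0 lower (median 0.91), and the mean level of the list was 8.59 and 8.63 in KO_HFD, against 7.26 and 7.32 in WT_HFD. Cidea, a lipid droplet protein of brown fat, had 11.69 and 11.82, against 7.46 and 6.94. It rose by 4.56 ± 0.13, or 23.5-fold, and Ucp1 by 5.41 ± 0.11. Acot11, a thioesterase induced in brown fat, had 8.32 and 8.38, against 7.02 and 6.35, Elovl6, a fatty acid elongase, rose by 1.11, and Elovl3, the elongase of cold-exposed brown fat, by 0.76. Dio2, which activates thyroid hormone, did not pass, with 7.89 and 7.47 against 7.74 and 7.74.

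Brown fat genes shared with muscle were higher in 12 of 15 with 0 lower (median 1.56). The cytochrome oxidase isoforms Cox7a1 and Cox8b rose by 4.15 and 3.76, and Coq8a, needed for coenzyme Q synthesis, by 2.90. Regulators of the brown and beige programme moved in both directions, 5 of 25 higher and 2 lower (median 0.08), with 3 higher without KO_HFD replicate b or without WT_HFD replicate a. Ppargc1b, a coactivator of mitochondrial genes, had 9.66 and 9.64 in KO_HFD, against 8.35 and 8.15 in WT_HFD, and Irf4, a thermogenic partner of Ppargc1a, had 7.63 and 7.69, against 6.95 and 6.96. Plac8, a regulator of Cebpb in brown fat, fell by 1.03. Prdm16, which fixes brown identity, had 5.77 and 5.67, against 5.73 and 5.45, and did not pass. Markers of beige and white depots were called in 4 of 17, or 2 without WT_HFD replicate a, with Slc27a1, a fatty acid transporter, and Slc36a2, an amino acid transporter also called Pat2, higher by 1.11 and 1.00.

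Most subunits of the respiratory chain were higher in the knockout. Complex I had 30 of 34 genes higher and 0 lower (median 0.71), complex II 4 of 4 (0.87), complex III 9 of 9 (1.00), complex IV 9 of 14 with 0 lower (0.50), and complex V 13 of 17 with 1 lower (0.62). Ndufv1, the NADH-binding subunit of complex I, had 11.94 and 12.04 in KO_HFD, against 10.46 and 10.61 in WT_HFD. Sdhb, the iron-sulfur subunit of complex II, had 11.87 and 12.12, against 10.27 and 10.42. The groups were separated by more than 1 unit for both. Sdhc, a membrane anchor of complex II, was the least certain of that complex, at 0.33, and its call ended without KO_HFD replicate a (limma adjusted p = 0.276), KO_HFD replicate b (0.0761) or WT_HFD replicate a (0.265). Cyc1 and Uqcrc2 of complex III rose by 1.36 and 1.25, Cox5a of complex IV by 1.06, and Atp5b, the catalytic subunit of the ATP synthase, by 0.89. The gene lower in complex V was Atpif1, which inhibits the ATP synthase, with 6.71 and 6.70 in KO_HFD, against 7.47 and 7.82 in WT_HFD.

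Genes that build this machinery differed less than its subunits. Of 74 mitochondrial ribosomal proteins 23 were higher and 1 lower (median 0.24), but only 7 were higher without KO_HFD replicate b and 10 without WT_HFD replicate a. Mrpl12 and Mrpl35 rose by 0.83 and 0.86, and Mrps6 fell by 0.73. Of 30 assembly factors 12 were higher and 0 lower, and leaving out 1 of the 4 arrays left between 2 and 6, with 2 without KO_HFD replicate b, 4 without WT_HFD replicate b, 5 without WT_HFD replicate a and 6 without KO_HFD replicate a. Carriers of the inner membrane were higher in 10 of 35 and lower in 1, led by Slc25a20, which imports acylcarnitines, at 1.14, and Slc25a42, a carrier of coenzyme A, at 0.97. Slc25a24, an ATP and phosphate carrier, was the gene that fell, by 0.62.

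Fuel entry into mitochondria showed the same direction. Pyruvate dehydrogenase and its control had 10 of 14 genes higher and 1 lower (median 0.83). The enzyme subunits Pdhb, Pdhx and Pdha1 rose by 1.53, 1.30 and 1.03, and so did Pdk4, the kinase that switches the complex off, by 1.97. Breakdown of branched-chain amino acids was higher in 18 of 22 genes with 0 lower (median 0.62). Bcat2, the mitochondrial aminotransferase of its opening step, had 10.42 and 10.35 in KO_HFD, against 8.49 and 8.69 in WT_HFD, a difference of 1.79 ± 0.11. Bckdha, a subunit of the dehydrogenase that commits the carbon, rose by 0.90 and Hsd17b10, which acts late in isoleucine breakdown, by 1.13. Muscle and brown fat both use these genes, and their own lists rose on the same arrays. How much of the mitochondrial differences came with either was not tested.

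**Figure D3:**
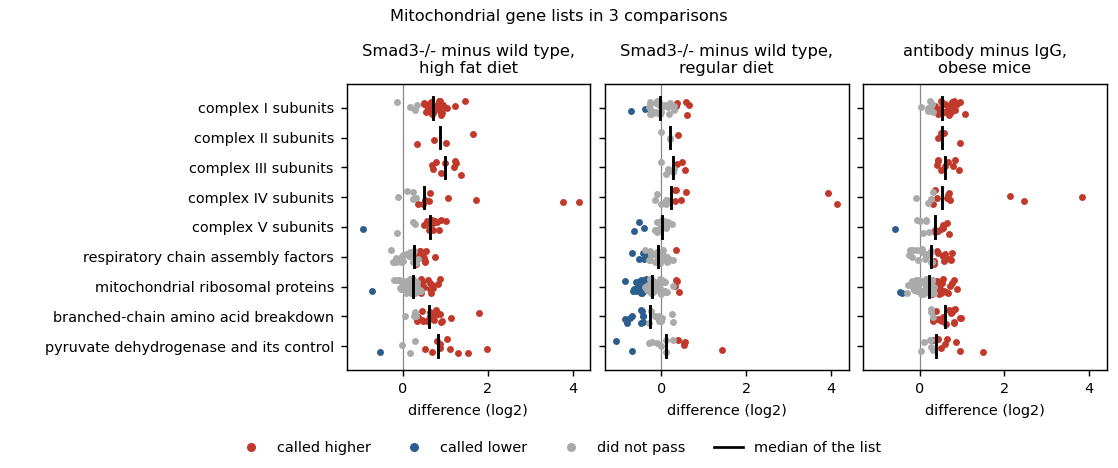
Log2 differences (horizontal axis) of the genes of 9 mitochondrial lists in 3 panels, KO_HFD minus WT_HFD, KO_RD minus WT_RD, and antibody minus IgG. Points are genes coloured by call and black bars are medians. The complex I median is 0.71, -0.04 and 0.53 in the 3 panels, and that of branched-chain amino acid breakdown 0.62, -0.27 and 0.60.

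Among adipokines and markers of adipocyte size, 9 of 25 were lower in the knockout and 4 higher, with a median of 0.00. Besides Mest and Lep, the genes that fell included Nnat, an imprinted proteolipid gene, with 9.85 and 9.95 in KO_HFD, against 11.61 and 11.74 in WT_HFD. Npr3, the clearance receptor of natriuretic peptides, had 9.32 and 9.62, against 10.79 and 10.95. Sfrp5, a secreted Wnt inhibitor that marks enlarged fat cells, fell by 1.23. Retn, which encodes resistin, rose by 0.55, and Adipoq did not pass at 0.16. The higher count was 2 without KO_HFD replicate b.

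Adipocyte lineage and lipid synthesis genes were called in fewer members, 5 of 19 higher and 1 lower (median 0.16), with 3 higher without KO_HFD replicate b. Gpd1, which supplies the glycerol backbone, rose by 1.24 and Dgat1, which completes triglyceride, by 0.68. Pparg, the master regulator of fat cells, did not pass, with 9.74 and 9.80 in KO_HFD, against 9.42 and 9.78 in WT_HFD. Fasn, the fatty acid synthase, had 13.89 and 13.87, against 13.25 and 13.28. Of 20 genes of lipolysis and the lipid droplet, 6 were higher and 1 lower, with 3 higher without KO_HFD replicate b or without WT_HFD replicate a. Abhd5, the coactivator of the triglyceride lipase, had 8.98 and 9.24, against 7.80 and 7.98, whereas the lipases Pnpla2 and Lipe were at 0.17 and 0.01 and did not pass.

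Insulin signalling genes were called in 4 of 25 (median -0.01), beside 10.8% called over all genes. Slc2a4, the insulin-responsive glucose transporter, had the smallest p of them. It had 10.13 and 10.27 in KO_HFD, against 9.19 and 9.51 in WT_HFD, a difference of 0.85 ± 0.11. The 3 higher genes became 1 without KO_HFD replicate b or without WT_HFD replicate a. Cholesterol synthesis was lower in 5 of 20 genes and higher in 1 (median -0.18), with Hmgcs1, which makes the precursor of mevalonate, at 10.06 and 10.21, against 11.00 and 11.28. Between 2 and 3 of its genes were lower when any 1 of the 4 arrays was left out.

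In the list of lipid-laden macrophages 8 of 22 genes were lower in the knockout, 1 was higher and 13 did not pass (median -0.23). In that of resident macrophages 10 of 21 were lower, 0 higher and 11 did not pass (median -0.26). Gpnmb, a glycoprotein of lipid-filled macrophages, had 7.20 and 7.52 in KO_HFD, against 9.03 and 9.19 in WT_HFD. Cd68, a lysosomal marker of macrophages, had 5.55 and 6.12, against 7.32 and 7.48. Trem2, the lipid receptor of these cells, fell by 0.50 and its adaptor Tyrobp by 0.92. Differences of resident macrophage genes were smaller. Retnla fell by 0.65, F13a1 by 0.66 and Cd163, the haemoglobin scavenger receptor, by 0.51, while Mrc1, the mannose receptor, was at -0.20 and Adgre1 at -0.03. The resident count was 4 without KO_HFD replicate a and 6 without WT_HFD replicate b. Of the macrophage genes fixed by name Cd68 was thus called lower, while Adgre1 and Itgax, at -0.03 and -0.16, did not pass.

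Lysosomal genes fell alongside, 17 of 38 with 0 higher (median -0.25), and 8 without KO_HFD replicate a or without WT_HFD replicate b. The proteases led them. Ctss had 7.22 and 7.26 in KO_HFD, against 8.74 and 8.76 in WT_HFD, Ctsh 7.16 and 7.35, against 8.62 and 8.79, and Ctsl 10.85 and 11.09, against 11.71 and 11.97. Antigen presentation was lower in 7 of 22 genes and higher in 1. H2-D1, a class I molecule, had 12.63 and 12.61, against 13.47 and 13.47, and its partner B2m fell by 0.53. Cd74 and H2-Eb1 of the class II pathway fell by 0.67 each.

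Complement genes were lower in 5 of 16 with 0 higher, among them the 3 chains of C1q, C1qa, C1qb and C1qc, at -0.51, -0.58 and -0.57. The count was 3 without KO_HFD replicate a or WT_HFD replicate b, and C1qb was no longer called in either case (limma adjusted p = 0.0643 and 0.124). Of 47 chemokines and receptors 2 were higher and 2 lower, a share near the 10.8% called over all genes. Ccl6, a chemokine of macrophages, was at -0.84 and Cxcl12, a homing signal, at 0.51, and the Cxcl12 call ended with its probe sets averaged (0.22, limma adjusted p = 0.243). Of 30 cytokine and acute phase genes 1 was higher and 4 lower, beside 10.8% called over all genes. Fewer were lower without KO_HFD replicate a or WT_HFD replicate b. Tnf had 6.47 and 6.50 in KO_HFD, against 6.44 and 6.11 in WT_HFD, and Ccl2, which attracts monocytes, had 6.56 and 6.56, against 6.68 and 6.70, and neither passed. Among 25 lymphocyte genes Jchain, which links secreted antibodies, was called, higher by 0.72, a share under the 10.8% over all genes. Of 16 monocyte and neutrophil genes 2 were lower (median 0.07), again a share near the 10.8% over all genes. They included Plac8, which is also in the list of brown and beige fat regulators.

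Components of the TGF-beta pathway itself were called in 5 of 45, 1 higher and 4 lower (median -0.01), a share near the 10.8% over all genes. Eng, an endothelial co-receptor, rose by 0.65, and Inhbb, an activin subunit, fell by 0.66, with 7.26 and 7.42 in KO_HFD, against 7.86 and 8.14 in WT_HFD. Smad1, which serves the BMP branch, was at -0.56, a call that ended with its probe sets averaged (-0.27, limma adjusted p = 0.0717). The ligand Tgfb1 did not pass, with 7.76 and 7.85, against 7.97 and 8.19. Lower components numbered 2 without KO_HFD replicate a or without WT_HFD replicate b. Of 23 genes known to be induced by TGF-beta, 5 were higher and 5 lower (median -0.04). Thbs1, a matrix protein that activates the ligand, had 6.07 and 6.34, against 7.47 and 7.42, and Lox, which crosslinks collagen, and Pmepa1, a feedback inhibitor, fell by 0.82 and 0.75. The higher genes were Tpm1, Tagln, Id1, Cnn1 and Ccn2. Tpm1, Tagln and Cnn1 belong to contractile cells, and Tpm1 also stands in the striated muscle list.

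Collagens were lower in 4 of 33 genes and higher in 1, beside 10.8% of all genes called in either direction. Fewer were lower without KO_HFD replicate a, and 0 were called with at least 1.5-fold required. The basement membrane chains Col4a2 and Col4a1 fell by 0.55 and 0.45, and Col4a1 was not called without KO_HFD replicate a (limma adjusted p = 0.0806) or WT_HFD replicate b (0.0687). Matrix proteases and their inhibitors were lower in 5 of 28 with 0 higher. Adamts5, which cuts proteoglycans, had 8.50 and 8.39 in KO_HFD, against 9.63 and 9.73 in WT_HFD, and Mmp12, the elastase of macrophages, had 6.01 and 5.95, against 6.68 and 6.85. In adipocyte precursor and fibroblast genes 2 of 21 were higher and 1 lower, a share near the 10.8% over all genes. Fewer were higher without KO_HFD replicate a or without KO_HFD replicate b.

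Markers of other tissues also moved with the groups. Of 23 epididymis and testis genes, 10 were lower and 0 higher (median -0.29), and the mean level of the list was 6.38 and 6.53 in KO_HFD, against 7.25 and 7.30 in WT_HFD. Epithelial genes were lower in 11 of 23 with 0 higher (median -0.25), at mean levels of 7.23 and 7.28, against 7.74 and 7.81. Krt18 and Krt8, the keratins of simple epithelia, had 7.82 and 7.83 against 9.29 and 9.67, and 8.98 and 9.15 against 10.60 and 10.74. Gpx5, a peroxidase of epididymal fluid, was at 0.05 and Epcam, an epithelial adhesion molecule, at -0.11, and neither passed. How much of the lower calls came with this tissue was not tested.

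Smooth muscle and pericyte genes were higher in 7 of 18 and lower in 2, among them Des, the intermediate filament of all muscle, with 10.11 and 10.23 in KO_HFD, against 8.37 and 8.30 in WT_HFD, and Myh11, smooth muscle myosin, with 7.67 and 7.71, against 6.40 and 6.69. Acta2, smooth muscle actin, did not pass at 0.13. The lowest of the list was Synpo2, at -1.74 by its brightest probe set, while another of its probe sets was called higher, by 0.72. Endothelial genes were higher in 6 of 24 with 0 lower, and in 3 without KO_HFD replicate a or WT_HFD replicate a. Pecam1 and Cdh5, junction proteins of the endothelium, were at 0.05 and 0.13 and did not pass. Of 14 mesothelial genes 2 were higher and 3 lower, and the defining marker Upk3b was among the higher ones, at 0.67. Of 21 Schwann cell and neuron genes 1 was higher and 1 lower, a share near the 10.8% called over all genes. Of 14 hepatocyte and blood cell genes 2 were higher and 0 lower, again a share near the 10.8% over all genes. They were Alas2, the haem synthesis enzyme of red cell precursors, at 1.37, and Cyp2e1, a cytochrome P450 also found in fat, at 1.03.

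Stress and defence genes were split. The glutathione and oxidant defence list had 7 of 35 genes higher and 11 lower (median -0.08). Its lower members included a block of mu-class glutathione transferases, Gstm5, Gstm6, Gstm1 and Gstm2, at -1.07, -1.02, -0.93 and -0.82. Gstm1 had 12.57 and 12.58 in KO_HFD, against 13.48 and 13.52 in WT_HFD. These genes are close copies of each other, so their probe sets may share signal. The higher members Prdx3 and Sod2, at 0.57 and 0.45, act in mitochondria. The higher count was 2 without KO_HFD replicate b or WT_HFD replicate a, and the lower count 7 without KO_HFD replicate a. Of 28 immediate early and heat shock genes 3 were higher and 7 lower. Hspa5, the chaperone of the endoplasmic reticulum, had 10.14 and 10.33, against 11.27 and 11.36, and the cytosolic chaperones Hsp90aa1 and Dnajb1 fell by 0.88 and 0.70. Fos and Jun, at -0.15 and -0.28, did not pass. Cell cycle genes were called in 4 of 34, again near the background share, with 1 higher and 3 lower, and 1 was lower without KO_HFD replicate a or WT_HFD replicate b.

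The genotype difference was not the same on the regular diet. There, 4361 genes were called between KO_RD and WT_RD (24.0%), 1528 higher (8.40%) and 2833 lower (15.6%). The difference between the 2 genotype differences, high fat minus regular, was tested directly and called for 3413 genes (18.8%), 2181 of them higher (12.0%) and 1232 lower (6.77%). Of the 863 genes higher on high fat diet, 149 (17.3%) were also higher on the regular diet, which is 9.8% of the genes higher there, and 258 (29.9%) were lower there. Of the 1100 genes lower on high fat diet, 409 (37.2%) were also lower on the regular diet, 14.4% of those lower there, and 340 (30.9%) were higher there. The comparisons share no array.

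Brown fat genes that muscle uses little were higher in 15 of 17 with 0 lower on high fat and higher in 12 with 2 lower on regular diet, with interaction calls in both directions, 4 higher and 4 lower. Ucp1 had 12.44 and 12.32 in KO_RD, against 6.40 and 6.44 in WT_RD, and its difference on high fat was smaller by 0.54 (limma adjusted p = 0.00941). For Cidea the interaction, -0.24, did not pass. Sarcomere genes behaved otherwise. Tnnc2 had 7.64 and 7.27 in KO_RD, against 9.99 and 9.95 in WT_RD, opposite in direction to the high fat diet, with an interaction of 9.08. The fast fibre list had 7 genes higher and 1 lower on the regular diet (median 0.41) and an interaction called higher in 11 of 13. For slow fibre genes these counts were 1 higher, 2 lower and 10 of 13.

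Mitochondrial lists differed in how many of their genes passed the test of the difference between diets. Complex I subunits were higher in 5 and lower in 2 of 34 on the regular diet, with the interaction higher in 27, and branched-chain amino acid genes were higher in 0 and lower in 10 of 22, with the interaction higher in 19. Bcat2 differed by 1.79 on high fat and -0.85 on regular diet. Mitochondrial ribosomal proteins were lower in 28 of 74 on the regular diet and the interaction was higher in 38. The interaction was higher in 4 and lower in 1 of 14 complex IV subunits and higher in 12 of 35 mitochondrial carriers, and 9 and 23 of these did not pass. Cox7a1 and Cox8b of complex IV were higher on the regular diet too, by 4.15 and 3.92, and their interactions, 0.01 and -0.16, did not pass.

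Of the epididymis and testis list 18 of 23 genes were higher in the knockout on the regular diet and 0 lower, and the interaction was called lower in 19. Lcn5 had 14.01 and 14.04 in KO_RD, against 5.05 and 5.22 in WT_RD, and its interaction of -12.61 was the lowest of all genes. Epithelial genes were higher in 13 of 23 there, with the interaction lower in 13, and Krt18 had an interaction of -3.75. Lep was lower in the knockout on both diets, by 2.34 on high fat and by 3.85 on regular diet. Lgals3 fell by 2.21 on high fat and by 1.83 on regular diet, with an interaction, -0.38, that did not pass.

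**Figure D4:**
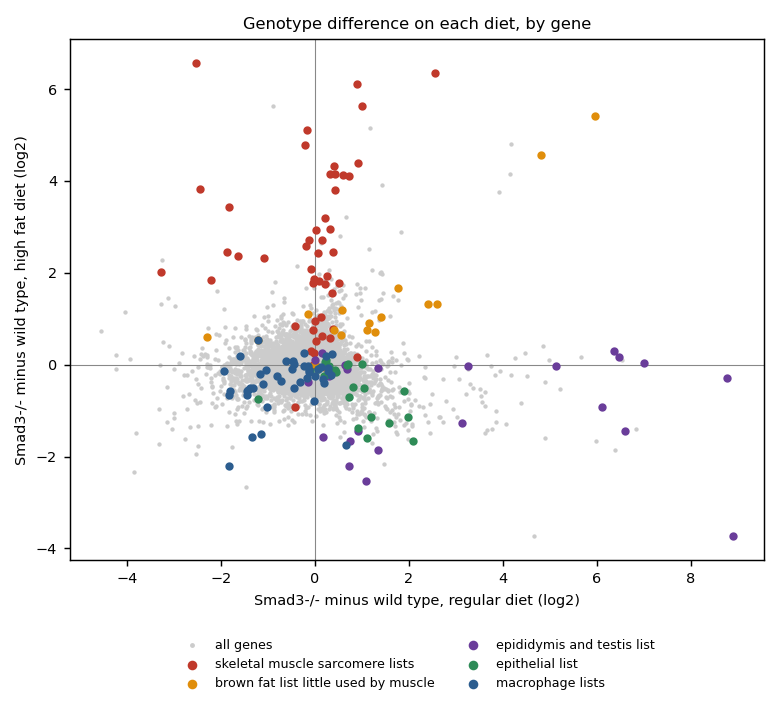
Each gene by its log2 difference Smad3-/- minus wild type on high fat diet (vertical axis) and on regular diet (horizontal axis), with members of 5 groups of lists in colour and all genes in grey. Sarcomere genes lie high on the vertical axis and on both sides of 0 on the horizontal one, Ucp1 and Cidea are far out on both, and epididymis genes lie far to the right and at or below 0 on high fat diet, apart from small positive values that did not pass.

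**Figure D5:**
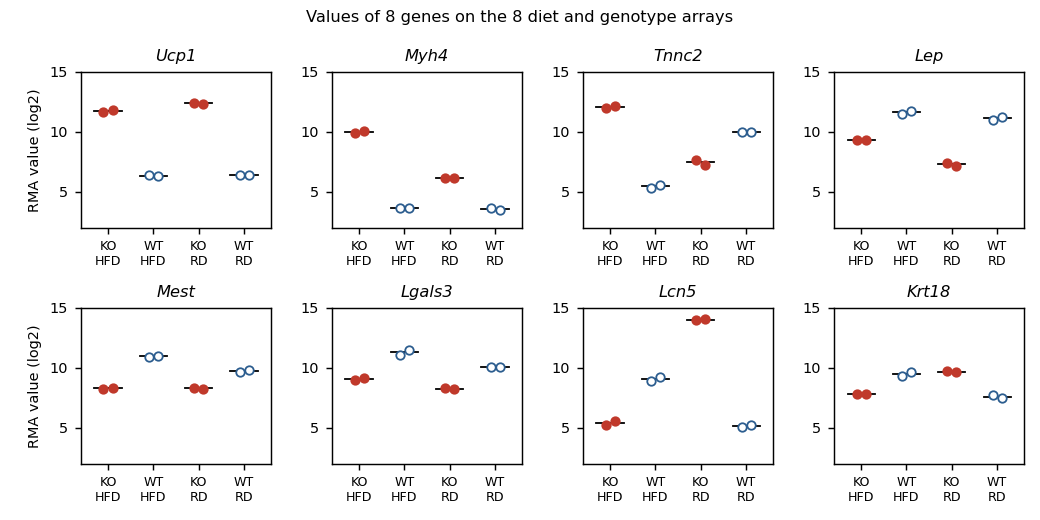
Log2 RMA values (vertical axis) of 8 genes on the 8 diet and genotype arrays. Points are arrays, filled for Smad3-/- and open for wild type, and bars are means of 2 arrays. Ucp1 is high in both knockout groups, Tnnc2 is highest in KO_HFD and lowest in WT_HFD, and Lcn5 stands apart in KO_RD.

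In the antibody experiment 4423 genes were called between antibody and IgG (24.3%), 2135 higher (11.7%) and 2288 lower (12.6%). Its arrays are separate from the diet and genotype arrays and had medians of 6.03 to 6.04, so levels are not compared across, and the difference between the 2 comparisons was not tested. Of the 863 genes higher in the knockout on high fat diet, 559 (64.8%) were also higher with the antibody, 26.2% of the genes higher there, and 24 were lower. Of the 1100 lower genes 422 (38.4%) were also lower with the antibody, 18.4% of those lower there, and 74 were higher. Fast fibre genes were higher with the antibody in 12 of 13, complex I subunits in 26 of 34 and branched-chain amino acid genes in 19 of 22. Myh4 differed by 7.03 and Ucp1 by 6.93. Lipid-laden macrophage genes were lower with the antibody in 17 of 22, and Itgax and Adgre1, which did not pass in the knockout on high fat diet, were called lower there, at -2.89 and -1.87. Epididymis and testis genes were called higher in 3 of 23 and lower in 0.

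Both directions held genes called alike in all 3 comparisons, 127 higher and 226 lower. Genes called alike on the regular diet and with the antibody, whatever their call on high fat diet, numbered 309 higher and 604 lower. The 127 genes were 14.7% of the 863 higher on high fat diet, and the 226 were 20.5% of the 1100 lower. Ranked by the smallest of their 3 differences, a choice made after their values were seen, the 127 higher genes were led by Ucp1, Cidea, Fabp3, Cox7a1 and Myh4. Ntrk3, a neurotrophin receptor gene, was also among them, with 8.01 and 8.13 in KO_HFD, against 6.45 and 6.67 in WT_HFD. So was Ppara, the receptor that drives fatty acid oxidation, with 7.74 and 7.86, against 6.54 and 6.25. The lower genes were led by Lep, Lgals3, Mtarc1, Mest and Cd68. Mtarc1, a mitochondrial reductase gene, had 8.43 and 8.73, against 10.29 and 10.44. Cavin3, a coat protein of caveolae, had 8.09 and 8.50, against 9.56 and 9.73. Groups did not overlap for any of these genes, as for every called gene and for 48.0% of all genes.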

How the data were processed

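Total RNA was labelled from 6 ug per sample and hybridised to 1 array each, as the labels' protocols state. The authors deposited log2 values made by RMA with Partek, per the submitters' processing notes, without versions. Gene names came from the platform annotation, by which 34958 of 45101 probe sets named 1 gene, and 18032 of 18194 genes matched the GRCm38.p6 table by gene ID. Medians and SDs differ between the diet and genotype arrays and the antibody arrays, so the 2 experiments may have been normalized separately.

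Differences were fitted in R 4.3.3 with limma 3.58.1 (group means over all 12 arrays in 6 groups, contrasts, eBayes with an intensity trend, 6 residual and 20.4 prior degrees of freedom), two-sided, with Benjamini-Hochberg adjustment over 18194 genes and a threshold of 0.05. The number of arrays limits the precision. Low values may be background, which compresses folds. The fit was tested on simulated data.

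The members and the 53 gene lists were chosen with earlier results of these data known. Genes were named by a rule: 25 preset genes, the 10 highest and 10 lowest called differences (predicted symbols passed over), the 8 highest and 8 lowest interactions, and up to 4 genes a list with the smallest p. Other list members named were chosen after their values were seen. Lists are described by counts and medians, with no test. Alternatives were a robust eBayes, one with no trend, dim genes (under the 40th percentile) left out, a gene's probe sets averaged, quantile normalization again, centring on medians, only the 8 or the 4 arrays concerned, a replicate block, 1.5-fold as a minimum, and each array in turn left out, with the single array remaining in a group assumed to vary as the other groups do.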

Additional observations from a re-analysis of the deposited data

Results flagged for a closer look

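The genotype difference changed with the diet for 3413 genes by limma's interaction test, or 18.8% of all genes. Of the 50 genes that stand at the ends of the rankings or were fixed by name, 35 were called for the interaction. Their SEs were between 0.14 and 0.33, with no limma adjusted p above 0.0169. These rankings include that of the interaction itself, so some of the 35 were picked for the size of their interaction. The 35 of 50 can therefore not be set against the 18.8% of all genes. Each value below is the log2 difference Smad3-/- minus wild type on high fat diet minus the same on regular diet.

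The lowest values belonged to genes of the epididymis, testis and secretory epithelium. They were -12.61 for Lcn5, -9.05 for Lcn8, -8.40 for Spint4, -8.24 for Epp13, -8.23 for C4bp, -8.03 for Adam7, -7.63 for Lcn2 and -7.03 for Cuzd1. The sperm genes Prm1, Prm2 and Tnp2 followed at -3.60, -3.21 and -2.93. Mest had -1.21 and Ucp1 -0.54.

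The highest values belonged to contractile and muscle energy genes. They were 9.08 for Tnnc2, 6.51 for Ckm, 6.27 for Acta1, 5.53 for Pdlim3, 5.29 for Tpm2, 5.28 for Cnn1, 5.27 for Myl2, 5.25 for Mybpc1, 5.23 for Tnnt3, 5.00 for Myh7, 4.64 for Tnni2, 3.97 for Atp2a1, 3.92 for Myh1, 3.81 for Myh4 and 2.96 for Myh2. Fat cell genes with called positive values were Pparg at 1.99, Slc2a4 at 1.68, Lep at 1.51, Adipoq at 1.05 and Fasn at 0.86. Fabp3 and Tuba1a had 0.63 and 0.59.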

How the results depend on the processing

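With at least 1.5-fold required, 895 genes were called, 432 higher and 463 lower. Leaving out 1 of the 4 arrays gave 543 to 816 higher and 648 to 984 lower genes, with the lowest counts of higher genes without KO_HFD replicate b (543) and WT_HFD replicate a (558), and of lower genes without WT_HFD replicate b (648) and KO_HFD replicate a (649). Quantile normalization applied again called 2376 genes, and averaging the probe sets of a gene 1620. With the letter a or b as a replicate block 1947 genes were called, and no named gene changed its call. The letters give no stated pairing, and deviations of arrays with the same letter correlated at 0.169. Of 189 named genes that were called, 153 kept the call under every alternative except the minimum fold, and no named gene reversed. Lysosomal genes called lower were 11 without an intensity trend, mitochondrial ribosomal proteins called higher 15 without a trend and 11 with the mean of probe sets, and striated muscle genes called higher 13 of 14 tested with dim genes left out. Ppargc1a, at 0.48 (limma adjusted p = 0.039), lost its call without KO_HFD replicate b (0.137), KO_HFD replicate a (0.214) or WT_HFD replicate a (0.564). The causes of these changes were not tested. Of 9012 genes with several probe sets, 10 had probe sets called in both directions, among them Tpm3, Asph and Synpo2.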

Other observations

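Of 9160 probe sets that the annotation names no gene for, 111 were higher and 80 lower in KO_HFD than in WT_HFD. These calls came from a fit of all 45101 probe sets. Of the 18194 genes, 4.74% were higher and 6.05% lower. Those shares rest on the brightest probe set of each gene in a separate fit. How often unnamed and named probe sets were called was therefore not compared like for like. The probe sets below had the highest and lowest differences among those called. The probe set 1436934_s_at had 12.59 and 12.61 in KO_HFD, against 10.45 and 10.71 in WT_HFD, and 1451002_at had 12.78 and 12.83, against 11.00 and 11.14. In the other direction 1423556_at had 6.28 and 6.05, against 8.85 and 9.25, and 1437874_s_at had 8.02 and 8.06, against 10.05 and 9.98.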
